A study of Mus musculus with 10 samples.

Results

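The genes described here are 41 markers of microglia and other myeloid cells, taken by symbol from a named list. Of the 41, 40 had a row among the 18453 rows of the count tables, all 40 passed the filter on low counts, and Clec7a was not analysed here. They were read in 10 RNA-seq libraries of hippocampal CA3 from C57BL/6J mice whose CA3 had been injected on both sides with adeno-associated virus. The virus delivered a short hairpin RNA (shRNA) aimed at Mef2c for 5 libraries and a scrambled hairpin for 5, so injection and virus were common to both groups. The labels name CA3 pyramidal neurons as the cells in which Mef2c was to be knocked down, mark each library as male while the injection protocol speaks of either sex, and do not say which animals gave which library. The sources used here do not give age, time after injection, or the serotype and promoter of the virus. Nothing ties each library to an animal of its own, so p-values cover only the variation from library to library, which may in part be technical.

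Microglia are the resident macrophages of the brain. In healthy tissue they depend on the growth factor receptor Csf1r, sense nucleotides through P2y receptors and carry surface markers such as Tmem119 and Siglech, a state called homeostatic. Near damage, infection or amyloid they are known to lower some of these genes and to raise others, among them Itgax, Cst7, Spp1 and Lpl, a change that in mouse models runs through the receptor Trem2 and its adaptor Tyrobp. Many further genes, such as the transcription factor Spi1 (PU.1) and the leukocyte antigen Ptprc (CD45), are shared with monocytes and macrophages that enter from blood. The 40 measured genes were therefore read as 12 homeostatic markers, 16 shared myeloid genes, 10 activation-associated genes and 2 markers of the macrophages at the borders of the brain, Mrc1 and Cd163. Microglia also express Mef2c themselves.

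Mef2c stood at 111, 131, 121, 163 and 286 CPM in the Mef2c shRNA libraries, against 166, 198, 176, 312 and 175 CPM in the scramble libraries, in replicate order 1 to 5. The Mef2c shRNA libraries 1 to 4 lay below every scramble library, whereas the fifth, called here the library labelled Mef2c shRNA 5, lay above 4 of the 5 scramble libraries. The difference between groups did not pass (log2 fold change -0.34, SE 0.300, edgeR adjusted p = 0.489). CPM are library counts scaled to a common size with TMM factors, and tests are the edgeR quasi-likelihood test with Benjamini-Hochberg adjustment over all 14393 genes tested. Library totals lay between 14701928 and 17798090 counts, and each Mef2c shRNA library was deeper than each scramble library. Across all genes, log2 fold changes fell with the length of the transcript, from a median of 0.24 in the shortest of 20 length bins to -0.36 in the longest. Fold changes are therefore also given with an adjustment per library for transcript length and GC content, called below the length and GC correction.

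Part of the microglia and myeloid genes were higher in the Mef2c shRNA libraries, with a larger median difference in the shared myeloid and activation-associated genes than in the homeostatic ones. Of the 40 members 15 rose, where 4.66% of all genes tested rose. By edgeR 0 members fell, where 7.61% of all genes fell, and 0 members were lower at an unadjusted p under 0.05 by edgeR, limma-voom or DESeq2. The median log2 fold change was 0.30 over the homeostatic genes, 1.01 over the shared myeloid genes and 0.95 over the activation-associated genes, against 0.02 over all genes tested. The genes that rose were 4 of 12 homeostatic, 8 of 16 shared myeloid and 3 of 10 activation-associated genes. In bulk RNA, more cells of a type and more RNA per cell cannot be told apart.

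The rise was unequal among the Mef2c shRNA libraries. Libraries 2, 3 and 4 each lay above all 5 scramble libraries in 32 of the 40 members, and in 17 of these no other Mef2c shRNA library did. Mef2c shRNA library 3 was the highest of all 10 libraries in 24 members. The library labelled Mef2c shRNA 5 exceeded all scramble libraries in 6 members, lay below the scramble median in 21 and was the lowest of all 10 in 11. Among the scramble libraries, number 3 was the highest in 30 members, including all 16 shared myeloid genes. How often all genes tested have these patterns by library was not counted, so these counts cannot be read as particular to the members. Over all genes, Mef2c shRNA libraries 2, 3 and 4 were also more alike in counts than any pair with library 1 or 5. Only Tmem119, Selplg, Csf2ra and Fcgr3 had all 5 Mef2c shRNA libraries above all 5 scramble libraries, which is 4 of 40 members, where the same was seen in 3.3% of all genes tested. Without Mef2c shRNA libraries 2, 3 and 4, edgeR called 0 members and 0 of all genes, with 4 members at an unadjusted p under 0.05, and the medians were 0.03 for homeostatic, 0.30 for shared myeloid and 0.17 for activation-associated genes.

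**Figure D1:**
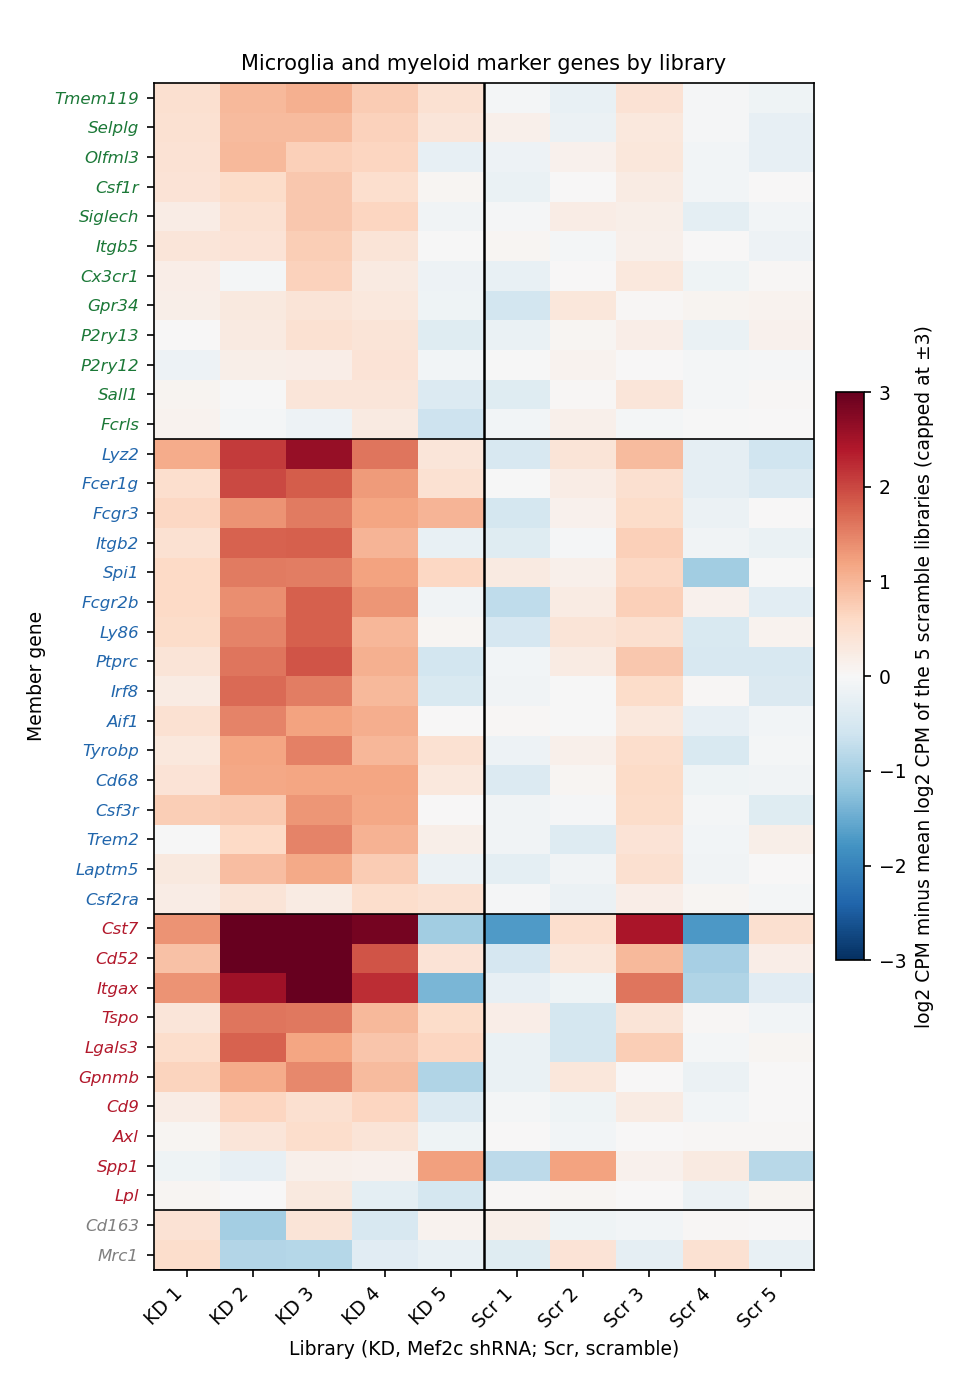
Level of each of the 40 members (down the page, grouped by role) in each library (across, KD for Mef2c shRNA left of Scr for scramble), as log2 CPM minus the mean log2 CPM of the 5 scramble libraries. Mef2c shRNA libraries 2, 3 and 4 carry the darkest red, most of all in the shared myeloid and activation-associated genes, and colours are capped at 3 in either direction. The library labelled Mef2c shRNA 5 lies above all scramble libraries in 6 of the 40 genes.

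Many of the calls were lost in fits that left out a single library. Leaving out Mef2c shRNA library 2, 3 or 4 left 4, 6 and 6 members called, and leaving out scramble library 1, 2, 4 or 5 left 5, 4, 5 and 4. Calls over all genes fell as well in these fits. Of all genes, 671 rose with all libraries, and 182, 300 and 314, then 273, 130, 164 and 138, in the same order. Without the library labelled Mef2c shRNA 5, 27 members were called, where 769 of all genes rose. Without Mef2c shRNA library 1 or scramble library 3, 18 and 17 members were called, where 1529 and 710 of all genes rose. Of the 15 called members, Tmem119, Selplg, Csf2ra and Fcgr3 were called in each of the 10 fits that left out a single library. After the length and GC correction, 2 of the 40 members were called, Selplg and Fcgr3, where 0.695% of all genes rose. The list medians were then 0.27 for homeostatic, 0.93 for shared myeloid and 0.82 for activation-associated genes.

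Letters of 4 promoters are shown, since Spi1 and Irf8, which encode transcription factors of the myeloid lineage, are themselves members and PU.1 binds purine-rich sites around GGAA. RefSeq windows (build GRCm38.p6) of 300 bases, 250 before and 50 after a start site, were matched by symbol for 31 of the 41 members. The letters GAGGAA, searched on both strands, were found for 15 of these 31 genes and for 31.3% of the genes in the table. They were found for 5 of the 8 members that rose and have a window, and for 9 of the 22 tested members that did not pass and have one. The longer form GAGGAAGT was found for Spp1 alone among the 31 (3.69% of all genes). A loose MEF2-like pattern (CTA, any 4 bases, then TAG) was found for Cx3cr1 alone (4.23%). It did not require A or T at the middle bases, so it does not count MEF2 sites. The interferon response element (GAAA, any 2 bases, then GAAA) was found for Aif1 and Spp1 (3.99%). The longer GAGGAAGT contains GAGGAA, and the other motifs were counted apart. A match is a description of the letters and not of binding. The first 3 windows below belong to genes that rose and hold GAGGAA in capitals (as TTCCTC where it lies on the other strand), the Aif1 window also has the interferon response element in capitals, and the P2ry12 window belongs to a homeostatic gene that did not pass and holds neither. The shorter letters GGAA do occur in the P2ry12 window. Other homeostatic genes that did not pass, P2ry13, Siglech and Fcrls, hold GAGGAA and are not shown. The 4 windows lie at chr1:171059354-171059653, minus strand, at chr4:126024409-126024708, plus strand, at chr17:35176003-35176302, minus strand, and at chr3:59262936-59263235, minus strand.
Fcgr3: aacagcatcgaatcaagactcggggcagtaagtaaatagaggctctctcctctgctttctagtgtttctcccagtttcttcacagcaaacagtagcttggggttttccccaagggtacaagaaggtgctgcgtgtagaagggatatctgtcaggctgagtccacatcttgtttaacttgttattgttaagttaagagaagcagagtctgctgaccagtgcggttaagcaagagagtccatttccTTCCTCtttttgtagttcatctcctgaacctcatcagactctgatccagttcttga
Csf3r: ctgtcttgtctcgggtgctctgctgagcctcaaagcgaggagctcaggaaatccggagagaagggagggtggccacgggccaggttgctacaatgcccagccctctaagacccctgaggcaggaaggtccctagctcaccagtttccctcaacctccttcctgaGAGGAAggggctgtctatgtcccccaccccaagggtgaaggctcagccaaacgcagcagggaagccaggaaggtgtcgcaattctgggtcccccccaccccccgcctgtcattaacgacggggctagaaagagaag
Aif1: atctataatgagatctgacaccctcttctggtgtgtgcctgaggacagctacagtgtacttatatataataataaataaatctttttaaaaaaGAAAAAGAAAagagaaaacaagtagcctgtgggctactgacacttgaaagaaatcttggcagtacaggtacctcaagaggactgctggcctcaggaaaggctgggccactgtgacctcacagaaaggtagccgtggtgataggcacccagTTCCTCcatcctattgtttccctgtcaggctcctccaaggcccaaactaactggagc
P2ry12: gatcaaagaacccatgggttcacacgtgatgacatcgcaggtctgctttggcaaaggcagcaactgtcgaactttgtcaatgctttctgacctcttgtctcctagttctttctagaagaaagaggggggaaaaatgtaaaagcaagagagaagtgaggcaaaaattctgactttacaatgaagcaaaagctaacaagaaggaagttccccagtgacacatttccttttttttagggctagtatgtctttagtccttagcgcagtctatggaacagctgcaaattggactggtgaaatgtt
For each gene the window shown is the first listed, which need not be that of its main start site. The Fcgr3 window lies inside the annotated gene, which reaches position 171064935 on the minus strand, so its start site is internal. In Fcgr3 and Aif1 the match starts 6 and 7 bases before the start site of the window shown, and in Csf3r 86 bases before it.

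Among the homeostatic markers, 4 genes of surface proteins rose, and the nucleotide receptors had log2 fold changes under 0.20 that did not pass. Tmem119, a transmembrane protein that marks resident microglia (chromosome 5, positions 113793729 to 113800516, minus strand, identifier ENSMUSG00000054675), stood at 28.7, 40.4, 43.6, 34.8 and 28.2 CPM in the Mef2c shRNA libraries, against 19.9, 17.6, 28.0, 20.1 and 18.8 CPM in the scramble libraries. The groups did not overlap, although the lowest Mef2c shRNA library, number 5, and scramble library 3 nearly met. The means were 35.1 ± 6.87 CPM in the Mef2c shRNA libraries and 20.9 ± 4.12 CPM in the scramble libraries (SD, n = 5 each), and the gene rose (log2 fold change 0.75, SE 0.150, edgeR adjusted p = 0.01). After the length and GC correction its log2 fold change was 0.59 (edgeR adjusted p = 0.0711).

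Selplg, the selectin ligand PSGL-1 on leukocytes (chromosome 5, positions 113818536 to 113832644, minus strand, identifier ENSMUSG00000048163), stood at 35.7, 50.1, 50.1, 41.5 and 33.5 CPM in the Mef2c shRNA libraries, against 28.8, 22.7, 32.3, 25.3 and 21.7 CPM in the scramble libraries. All Mef2c shRNA libraries were above all scramble libraries, with numbers 2 and 3 highest and number 5 lowest. It rose (log2 fold change 0.69, SE 0.138, edgeR adjusted p = 0.00986) and stayed called after the correction (log2 fold change 0.60, edgeR adjusted p = 0.0398). Over the fits without a single library its edgeR adjusted p ranged from 0.00412 to 0.037.

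Csf1r, the receptor for the growth factors Csf1 and Il34 on which microglia depend for survival (chromosome 18, positions 61100598 to 61132149, plus strand, identifier ENSMUSG00000024621), had the highest level per transcript length of the homeostatic markers, 31.2 CPM per kb in the Mef2c shRNA libraries and 22.4 in the scramble libraries. Its values were 139.6, 154, 182, 148 and 109 CPM in the Mef2c shRNA libraries, against 91.1, 106, 125, 99.2 and 105 CPM in the scramble libraries. Libraries 1 to 4 exceeded every scramble library and the library labelled Mef2c shRNA 5 fell among them. Csf1r rose (log2 fold change 0.48, SE 0.121, edgeR adjusted p = 0.0273). Its edgeR adjusted p ranged from 0.00275 to 0.0718 without a single library, with the call lost without Mef2c shRNA library 2 or 4 or scramble library 1, 2, 4 or 5. In the annotation 15.1% of its exonic bases overlap those of Hmgxb3 on the opposite strand, and reads from both cannot be told apart when strand is not known.

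Itgb5, an integrin subunit of microglia and other cells, stood at 71.6, 73.7, 91.9, 72.4 and 54.7 CPM in the Mef2c shRNA libraries, against 57.7, 52.8, 62.0, 55.7 and 49.7 CPM in the scramble libraries. Its pattern was that of Csf1r, with the library labelled Mef2c shRNA 5 inside the scramble range. It rose (log2 fold change 0.39, SE 0.111, edgeR adjusted p = 0.0392), with the call lost without Mef2c shRNA library 2, 3 or 4 or scramble library 1, 2, 4 or 5 (edgeR adjusted p from 0.00382 to 0.104), and had a corrected log2 fold change of 0.29 (edgeR adjusted p = 0.198).

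P2ry12, the ADP receptor that steers microglial processes to injury (chromosome 3, positions 59216272 to 59262871, minus strand, identifier ENSMUSG00000036353), stood at 24.9, 31.6, 32.1, 36.8 and 26.3 CPM in the Mef2c shRNA libraries, against 27.6, 29.7, 28.0, 26.7 and 27.1 CPM in the scramble libraries. Mef2c shRNA libraries 2, 3 and 4 were above every scramble library, library 1 and the library labelled Mef2c shRNA 5 were below all of them, and library 4 was the highest of all 10. Its difference did not pass (log2 fold change 0.13, SE 0.0988, edgeR adjusted p = 0.42). The neighbouring receptor P2ry13 likewise did not pass (log2 fold change 0.17, SE 0.155), and nor did Gpr34, a lysophosphatidylserine receptor (log2 fold change 0.19, SE 0.157).

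Cx3cr1, the receptor through which neuronal fractalkine reaches microglia, stood at 53.6, 44.5, 75.1, 55.9 and 41.9 CPM in the Mef2c shRNA libraries, against 39.6, 46.6, 58.0, 42.6 and 48.1 CPM in the scramble libraries. Library 3 alone exceeded the scramble libraries, and the difference did not pass (log2 fold change 0.20, SE 0.154, edgeR adjusted p = 0.403). Sall1, a transcription factor of microglial identity, had 20.2 to 34.6 CPM in the Mef2c shRNA libraries and 20.8 to 34.5 CPM in the scramble libraries (log2 fold change 0.08, SE 0.155). Fcrls, an Fc receptor-like protein used as a microglial marker in mice, had 13.5 to 24.9 CPM in the Mef2c shRNA libraries and 19.4 to 23.1 CPM in the scramble libraries (log2 fold change -0.07, SE 0.132). These 6 genes had log2 fold changes from -0.07 to 0.20, and a p that misses the threshold does not show that the groups were alike.

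Siglech, a sialic acid-binding receptor, and Olfml3, a secreted matrix protein, lay between these sets. Siglech had 12.1 to 23.1 CPM in the Mef2c shRNA libraries and 10.7 to 15.5 CPM in the scramble libraries (log2 fold change 0.43, SE 0.161, edgeR adjusted p = 0.0913). Olfml3 stood at 24.2, 35.4, 29.4, 28.1 and 15.0 CPM in the Mef2c shRNA libraries, against 16.1, 19.5, 22.9, 17.0 and 15.1 CPM in the scramble libraries. It was the homeostatic gene with the lowest level per length, and libraries 1 to 4 were above every scramble library while the library labelled Mef2c shRNA 5 was the lowest of all. Olfml3 did not pass (log2 fold change 0.54, SE 0.200, edgeR adjusted p = 0.0941), but was called without the library labelled Mef2c shRNA 5.

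**Figure D2:**
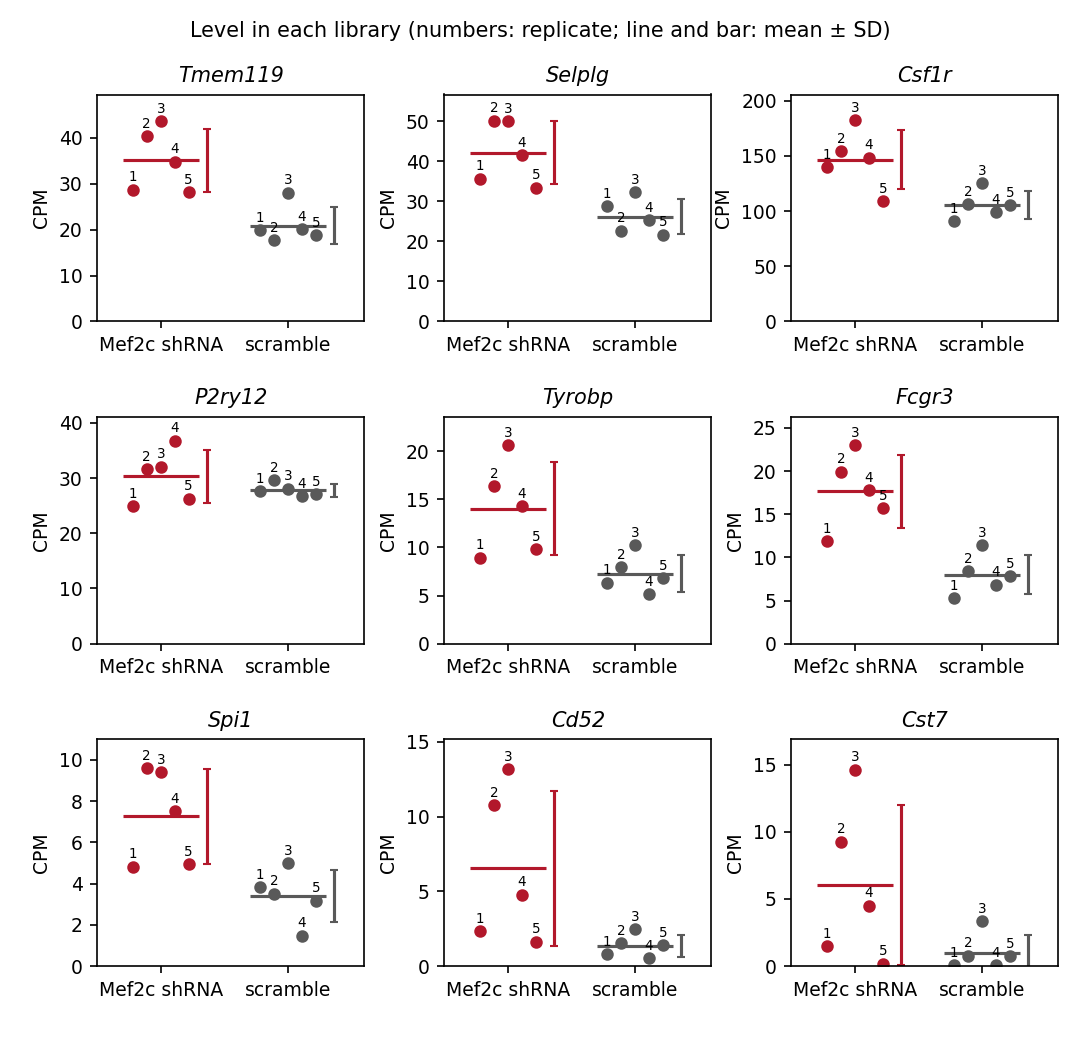
CPM in each library for 9 members, Mef2c shRNA left of scramble, with points numbered by replicate and lines and bars at the mean ± SD, bars being cut at 0 CPM. Tmem119, Selplg and Fcgr3 do not overlap between groups, P2ry12 does, and in Cd52 and Cst7 Mef2c shRNA libraries 2 and 3 stand far above the rest.

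The shared myeloid genes all had positive log2 fold changes, from 0.37 for Csf2ra to 1.64 for Lyz2, and 8 of the 16 rose. Fcgr3, a low-affinity receptor for IgG (chromosome 1, positions 171051174 to 171064935, minus strand, identifier ENSMUSG00000059498), stood at 11.9, 19.9, 23.0, 17.8 and 15.7 CPM in the Mef2c shRNA libraries, against 5.31, 8.44, 11.4, 6.83 and 7.84 CPM in the scramble libraries. The groups did not overlap, and the library labelled Mef2c shRNA 5 was above all scramble libraries here. The means were 17.7 ± 4.22 CPM in the Mef2c shRNA libraries and 7.97 ± 2.26 CPM in the scramble libraries (SD, n = 5 each). Fcgr3 rose (log2 fold change 1.15, SE 0.206, edgeR adjusted p = 0.00559) and stayed called after the correction (log2 fold change 1.00, edgeR adjusted p = 0.0291). Fcgr2b, the inhibitory IgG receptor and the shared gene with the lowest level per length, had 3.26 to 12.5 CPM in the Mef2c shRNA libraries and 2.02 to 5.83 CPM in the scramble libraries and did not pass (log2 fold change 1.07, SE 0.362, edgeR adjusted p = 0.0748). The mouse IgG receptor genes are alike in sequence, and the sources used here do not say how reads common to them were counted.

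Fcer1g, the common gamma chain that carries the signalling motif (ITAM) of activating Fc receptors (chromosome 1, positions 171229572 to 171234365, minus strand, identifier ENSMUSG00000058715), stood at 6.55, 18.6, 16.5, 11.4 and 6.34 CPM in the Mef2c shRNA libraries, against 4.57, 5.37, 6.43, 3.82 and 3.44 CPM in the scramble libraries. Libraries 2 and 3 were highest, and the library labelled Mef2c shRNA 5 lay just below the highest scramble library. It rose (log2 fold change 1.33, SE 0.321, edgeR adjusted p = 0.0253). Tyrobp, or DAP12, the ITAM adaptor of Trem2 (chromosome 7, positions 30413760 to 30417585, plus strand, identifier ENSMUSG00000030579), stood at 8.93, 16.3, 20.6, 14.3 and 9.84 CPM in the Mef2c shRNA libraries, against 6.32, 7.93, 10.2, 5.16 and 6.81 CPM in the scramble libraries. Mef2c shRNA library 1 and the library labelled 5 lay below scramble library 3, and the gene rose (log2 fold change 0.94, SE 0.242, edgeR adjusted p = 0.0289). Trem2, the lipid-sensing receptor itself, stood at 12.4, 18.9, 35.1, 26.0 and 14.0 CPM in the Mef2c shRNA libraries, against 11.5, 9.46, 16.6, 11.7 and 14.2 CPM in the scramble libraries. Library 1 and the library labelled Mef2c shRNA 5 were within the scramble range, library 3 was highest, and the difference did not pass (log2 fold change 0.75, SE 0.285, edgeR adjusted p = 0.111).

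Spi1, the ETS factor PU.1 that specifies myeloid cells (chromosome 2, positions 91082390 to 91115756, plus strand, identifier ENSMUSG00000002111), stood at 4.82, 9.60, 9.41, 7.52 and 4.95 CPM in the Mef2c shRNA libraries, against 3.83, 3.52, 4.97, 1.47 and 3.16 CPM in the scramble libraries. Libraries 2, 3 and 4 were above all scramble libraries, and Spi1 rose (log2 fold change 1.1, SE 0.291, edgeR adjusted p = 0.0312). Irf8, its partner in microglial gene control, stood at 7.32, 20.1, 18.1, 12.2 and 4.41 CPM in the Mef2c shRNA libraries, against 5.65, 6.07, 9.02, 6.23 and 4.47 CPM in the scramble libraries. The library labelled Mef2c shRNA 5 was the lowest of all 10, and Irf8 did not pass (log2 fold change 0.98, SE 0.388, edgeR adjusted p = 0.12).

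Of the cytokine receptors, Csf2ra, the alpha chain of the GM-CSF receptor, stood at 49.8, 55.8, 50.7, 61.0 and 58.2 CPM in the Mef2c shRNA libraries, against 41.8, 37.9, 48.9, 44.0 and 40.9 CPM in the scramble libraries. The 5 Mef2c shRNA libraries, including number 5, were above all scramble libraries within a narrow spread, and Csf2ra rose with the smallest log2 fold change of the called members (log2 fold change 0.37, SE 0.0818, edgeR adjusted p = 0.0135). Csf3r, the G-CSF receptor, stood at 15.2, 15.5, 22.7, 20.3 and 9.12 CPM in the Mef2c shRNA libraries, against 8.41, 8.82, 13.3, 8.71 and 6.94 CPM in the scramble libraries. The library labelled Mef2c shRNA 5 fell within the scramble range, and Csf3r rose (log2 fold change 0.84, SE 0.235, edgeR adjusted p = 0.0403). The corrected log2 fold change was 0.21 for Csf2ra (edgeR adjusted p = 0.108) and 0.77 for Csf3r (edgeR adjusted p = 0.109).

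Aif1, the actin-binding protein Iba1 used to stain microglia, stood at 4.69, 9.66, 7.97, 7.28 and 3.38 CPM in the Mef2c shRNA libraries, against 3.43, 3.32, 4.24, 2.81 and 3.16 CPM in the scramble libraries. Cd68, a lysosomal membrane protein of phagocytes, stood at 9.57, 16, 16.3, 16.4 and 8.94 CPM in the Mef2c shRNA libraries, against 5.31, 7.48, 10.6, 6.57 and 6.67 CPM in the scramble libraries. In both genes libraries 2, 3 and 4 were at least 1.5 times the highest scramble library, and the library labelled Mef2c shRNA 5 was within the scramble range. Aif1 rose (log2 fold change 0.96, SE 0.251, edgeR adjusted p = 0.0277), as did Cd68 (log2 fold change 0.88, SE 0.221, edgeR adjusted p = 0.0261). The calls of Aif1, Tyrobp, Cd68 and Csf3r were lost without Mef2c shRNA library 2, 3 or 4 or scramble library 1, 2, 4 or 5, those of Spi1 without the same libraries except scramble 4, and that of Fcer1g without the same ones except Mef2c shRNA 4. Over the fits without a single library the edgeR adjusted p ranged from 0.00382 to 0.0796 for Aif1, 0.00668 to 0.0771 for Tyrobp, 0.00798 to 0.0722 for Cd68, 0.00514 to 0.1 for Csf3r, 0.0117 to 0.0824 for Spi1 and 0.00677 to 0.0706 for Fcer1g.

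The remaining shared genes had positive fold changes with a wide spread in the Mef2c shRNA libraries. Lyz2, lysozyme of macrophages and granulocytes, stood at 15.3, 30.5, 43.5, 21.6 and 9.06 CPM in the Mef2c shRNA libraries, against 5.04, 9.34, 13.7, 5.83 and 4.61 CPM in the scramble libraries. Libraries 1 to 4 exceeded every scramble library and library 3 was highest, yet Lyz2 did not pass (log2 fold change 1.64, SE 0.475, edgeR adjusted p = 0.0559). Laptm5, a lysosomal membrane protein of blood cells, had the highest level per length of the shared genes, 26.4 CPM per kb in the Mef2c shRNA libraries and 17.0 in the scramble libraries. It ranged over 38.7 to 95.9 CPM in the Mef2c shRNA libraries and 35.6 to 61.0 CPM in the scramble libraries and did not pass (log2 fold change 0.64, SE 0.246, edgeR adjusted p = 0.118). The others were Itgb2 (log2 fold change 1.11, SE 0.40), the beta chain of leukocyte integrins, the CD45 phosphatase Ptprc (log2 fold change 1.04, SE 0.456) and Ly86 (log2 fold change 1.07, SE 0.339), the partner of the receptor RP105, and none of these 3 passed.

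**Figure D3:**
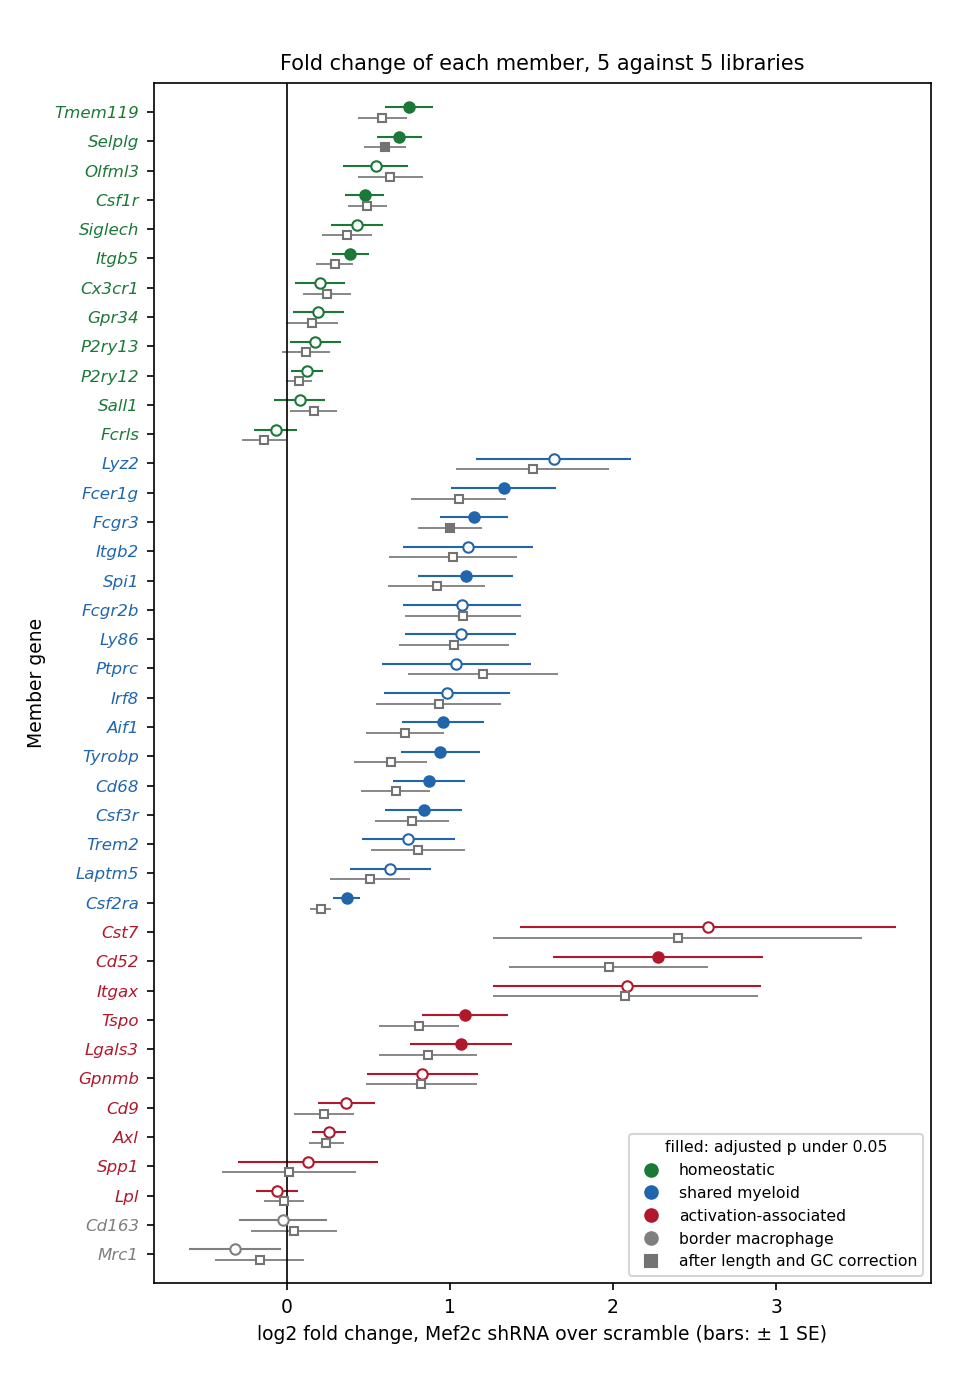
Log2 fold change of Mef2c shRNA over scramble for each of the 40 members (circles, ± 1 SE, filled where the edgeR adjusted p was under 0.05) and the same after the length and GC correction (grey squares). The homeostatic genes lie between -0.07 and 0.75, the shared myeloid genes between 0.37 and 1.64, and the activation-associated genes spread from -0.06 to 2.58.

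The activation-associated genes divided into a set with large differences and a set with small ones. Cd52, a glycoprotein of the leukocyte surface (chromosome 4, positions 134082448 to 134095082, minus strand, identifier ENSMUSG00000000682), stood at 2.31, 10.8, 13.2, 4.78 and 1.63 CPM in the Mef2c shRNA libraries, against 0.807, 1.53, 2.45, 0.536 and 1.37 CPM in the scramble libraries. Libraries 2 and 3 were far above all others, and the library labelled Mef2c shRNA 5 was within the scramble range. Cd52 rose (log2 fold change 2.28, SE 0.644, edgeR adjusted p = 0.0477). In the annotation 14.5% of its exonic bases overlap Crybg2 on the opposite strand.

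Tspo, the outer mitochondrial membrane protein imaged in brain inflammation, stood at 4.95, 11.8, 11.7, 7.57 and 5.62 CPM in the Mef2c shRNA libraries, against 4.37, 2.62, 5.04, 3.89 and 3.57 CPM in the scramble libraries. Here Mef2c shRNA library 1, at 4.95 CPM, fell within the scramble range and the other 4 did not. Tspo rose (log2 fold change 1.09, SE 0.261, edgeR adjusted p = 0.0201). In the annotation 5.0% of its exonic bases overlap Mcat on the opposite strand. Lgals3, galectin 3, stood at 1.86, 4.61, 3.01, 2.33 and 2.05 CPM in the Mef2c shRNA libraries, against 1.08, 0.831, 2.19, 1.21 and 1.31 CPM in the scramble libraries, with the library labelled Mef2c shRNA 5 and library 1 below scramble library 3. It rose as well (log2 fold change 1.07, SE 0.315, edgeR adjusted p = 0.0417). The calls of Cd52 and Lgals3 were lost without Mef2c shRNA library 2, 3 or 4 or scramble library 1, 2, 4 or 5, and that of Tspo without Mef2c shRNA library 2 or scramble library 2, 4 or 5. The edgeR adjusted p over these fits ranged from 0.0235 to 0.109 for Cd52, 0.0178 to 0.119 for Lgals3 and 0.00344 to 0.0614 for Tspo.

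Cst7, the protease inhibitor cystatin F, stood at 1.48, 9.27, 14.6, 4.49 and 0.181 CPM in the Mef2c shRNA libraries, against 0.0673, 0.767, 3.32, 0.0670 and 0.756 CPM in the scramble libraries. The spread within both groups was wide, scramble library 3 lay above Mef2c shRNA library 1, and Cst7 had the largest log2 fold change of the members without passing (log2 fold change 2.58, SE 1.15, edgeR adjusted p = 0.172). Itgax, the integrin CD11c and the activation-associated gene with the lowest level per length, stood at 2.70, 6.33, 12, 5.07 and 0.302 CPM in the Mef2c shRNA libraries, against 0.807, 0.895, 3.25, 0.469 and 0.756 CPM in the scramble libraries. The library labelled Mef2c shRNA 5 was the lowest of all 10, and Itgax did not pass (log2 fold change 2.09, SE 0.822, edgeR adjusted p = 0.125). Gpnmb, a glycoprotein of phagocytes with lipid-laden lysosomes, stood at 12.7, 17.0, 21.5, 15.3 and 4.17 CPM in the Mef2c shRNA libraries, against 6.79, 9.97, 7.96, 6.97 and 7.97 CPM in the scramble libraries. Again libraries 1 to 4 were above every scramble library and the library labelled Mef2c shRNA 5 below them, and Gpnmb did not pass (log2 fold change 0.83, SE 0.343, edgeR adjusted p = 0.132).

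The small differences were those of Axl, Cd9, Spp1 and Lpl. Axl, a receptor for Gas6 that other brain cells express too, had 51.7 to 81.9 CPM in the Mef2c shRNA libraries and 53.7 to 58.8 CPM in the scramble libraries (log2 fold change 0.26, SE 0.105, edgeR adjusted p = 0.114). Cd9, a tetraspanin also made by oligodendrocytes, had the highest level per length of all members, 38.0 CPM per kb in the Mef2c shRNA libraries and 29.5 in the scramble libraries, and did not pass (log2 fold change 0.37, SE 0.176, edgeR adjusted p = 0.19). Lpl, lipoprotein lipase, which hippocampal neurons also make, had 34.5 to 61.5 CPM in the Mef2c shRNA libraries and 44.1 to 53.1 CPM in the scramble libraries (log2 fold change -0.06, SE 0.129, edgeR adjusted p = 0.786). Spp1, osteopontin, stood at 4.11, 3.77, 4.96, 4.89 and 10.6 CPM in the Mef2c shRNA libraries, against 2.56, 10.5, 4.91, 5.43 and 2.47 CPM in the scramble libraries. Its 2 high values were the library labelled Mef2c shRNA 5 and scramble library 2, and it did not pass (log2 fold change 0.13, SE 0.427, edgeR adjusted p = 0.871).

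The border macrophage markers did not have Mef2c shRNA libraries 2, 3 and 4 all above the scramble libraries. The same was so for Cx3cr1, Gpr34, Sall1, Fcrls, Lpl and Spp1 among the other members. Mrc1, the mannose receptor, stood at 6.55, 2.39, 2.45, 3.55 and 3.86 CPM in the Mef2c shRNA libraries, against 3.5, 6.07, 3.71, 6.23 and 3.85 CPM in the scramble libraries. Cd163, the haemoglobin scavenger receptor, stood at 3.40, 1.17, 3.26, 1.75 and 2.66 CPM in the Mef2c shRNA libraries, against 2.82, 2.24, 2.32, 2.55 and 2.47 CPM in the scramble libraries. Mef2c shRNA library 1 was the highest and library 2 the lowest of all 10 in both genes, and neither passed (Mrc1 log2 fold change -0.32, SE 0.282, edgeR adjusted p = 0.48; Cd163 log2 fold change -0.02, SE 0.270, edgeR adjusted p = 0.962).

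By library, the score of the activation-associated genes spread over a wider range than that of the homeostatic genes. A list score, the mean over genes of log2 CPM centred on the 10 libraries, was for the homeostatic genes 0.07, 0.25, 0.43, 0.31 and -0.27 in the Mef2c shRNA libraries, against -0.30, -0.11, 0.05, -0.23 and -0.21 in the scramble libraries. For the activation-associated genes it was 0.08, 1.01, 1.24, 0.60 and -0.62 in the Mef2c shRNA libraries, against -0.81, -0.36, 0.19, -0.84 and -0.50 in the scramble libraries. The difference between these scores, activation-associated minus homeostatic, was 0.00, 0.76, 0.81, 0.29 and -0.35 in the Mef2c shRNA libraries, against -0.51, -0.25, 0.14, -0.60 and -0.29 in the scramble libraries. It was highest in Mef2c shRNA libraries 2, 3 and 4 and next in scramble library 3, and the library labelled Mef2c shRNA 5 lay among the scramble libraries. For the shared myeloid genes the score was 0.01, 0.88, 1.07, 0.63 and -0.31 in the Mef2c shRNA libraries, against -0.69, -0.38, 0.10, -0.69 and -0.63 in the scramble libraries. Single activation-associated genes spread unequally. As log2 CPM minus the scramble mean, Cst7 ranged from -1.71 to 4.54, Itgax from -1.37 to 3.45 and Cd52 from -0.99 to 3.33. These 3 genes were low, at scramble means of 0.995, 1.24 and 1.34 CPM. Axl, Lpl and Cd9 stayed between -0.53 and 0.66, so the wide score does not describe each gene of the list. These scores describe lists chosen with earlier results known and were not tested. With Trem2, Tyrobp, Cd68 and Lyz2 counted as activation-associated, 5 of 14 activation-associated genes rose, and 6 of 12 shared myeloid genes.

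**Figure D4:**
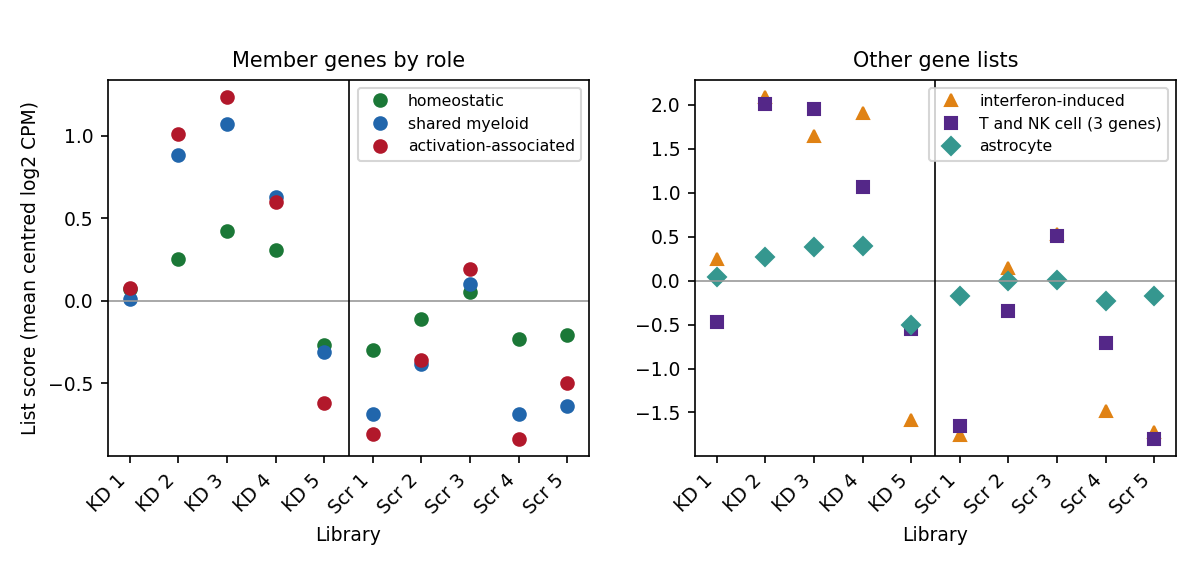
List scores (mean centred log2 CPM) in each library for the homeostatic, shared myeloid and activation-associated members (left panel) and for interferon-induced, T and NK cell and astrocyte genes (right panel), Mef2c shRNA libraries (KD) left of the vertical line and scramble libraries (Scr) right of it. Mef2c shRNA libraries 2, 3 and 4 are highest in each of the 6 lists shown, and the activation-associated score spans from -0.84 to 1.24 where the homeostatic score spans from -0.30 to 0.43.

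Interferon-induced genes and markers of T and NK cells were highest in the same libraries. The score of 12 interferon-induced genes was 0.25, 2.09, 1.64, 1.90 and -1.59 in the Mef2c shRNA libraries, against -1.75, 0.14, 0.53, -1.49 and -1.72 in the scramble libraries, and 1 of the 12, Rtp4, rose. Of the 12, 6 had an unadjusted edgeR p under 0.05, and DESeq2 called 5 and limma-voom 12. Over all genes tested, 4.66% rose by edgeR, DESeq2 called 1167 higher and limma-voom 1588. After the length and GC correction Rtp4 was not called (edgeR adjusted p = 0.0935). The summed level of 8 T and NK cell markers was 2.42 to 28.8 CPM in the Mef2c shRNA libraries and 0.605 to 8.02 CPM in the scramble libraries, highest in Mef2c shRNA libraries 2, 3 and 4. Of these 8, 3 were abundant enough to be tested (Cd3e, Cd4 and Cd8a, log2 fold changes 1.76 to 1.94). By edgeR 0 passed and 2 had an unadjusted p under 0.05, while DESeq2 called 1 and limma-voom 3. Cd8a stood at 0.835, 5.83, 4.83, 4.54 and 0.845 CPM in the Mef2c shRNA libraries, against 0.202, 0.448, 3.32, 0.335 and 0.275 CPM in the scramble libraries. The sum over 12 other border macrophage and monocyte genes was 53.8 to 73.0 CPM in the Mef2c shRNA libraries and 53.4 to 68.2 CPM in the scramble libraries. Most of this sum was Stab1, at 26.6 ± 4.54 CPM in the Mef2c shRNA libraries and 27.8 ± 3.24 CPM in the scramble libraries, and Vcan, at 22.6 ± 2.15 CPM in the Mef2c shRNA libraries and 26.6 ± 1.5 CPM in the scramble libraries (SD, n = 5 each). Plac8, Ms4a7 and Ccr2 were too low to be tested. They averaged 2.20, 1.18 and 1.16 CPM in the Mef2c shRNA libraries, against 0.302, 0.346 and 0.45 CPM in the scramble libraries, each with its highest value in Mef2c shRNA library 2 or 3. Lyve1 and Pf4, also too low to be tested, averaged 0.592 and 0.318 CPM in the Mef2c shRNA libraries, against 0.659 and 0.545 CPM in the scramble libraries. Clec4n and Chil3, too low as well, were highest in the library labelled Mef2c shRNA 5. The tested genes F13a1 (log2 fold change 0.12, SE 0.337) and Cbr2 (log2 fold change -0.02, SE 0.349) did not pass. The score over the 5 tested genes of this list was highest in Mef2c shRNA libraries 2, 4 and 3, at 0.72, 0.40 and 0.21. The monocyte gene Ly6c2 did not pass (log2 fold change 2.60, SE 1.21, edgeR adjusted p = 0.188), at 1.09, 15.6, 4.89, 4.95 and 0.423 CPM in the Mef2c shRNA libraries, against 0.202, 0.575, 3.51, 0.134 and 0 CPM in the scramble libraries. For 7 neutrophil genes the sum was 0.990 to 9.96 CPM in the Mef2c shRNA libraries and 0.550 to 1.68 CPM in the scramble libraries, with the library labelled Mef2c shRNA 5 highest, and for 4 B cell genes 0.785 to 2.38 CPM in the Mef2c shRNA libraries and 0.268 to 0.894 CPM in the scramble libraries. At 0 in at least 1 library were 4 of the 8 T and NK cell genes, 6 of the 12 border macrophage and monocyte genes, 4 of the 7 neutrophil genes and 3 of the 4 B cell genes, and none of these markers was at 0 in all 10. The defining T cell gene Cd3e and the neutrophil gene S100a8 were above 0 in each library. The part of these cells in the members' levels was not tested.

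Markers of resident brain cells were read in the same way, beside the 4.66% of all genes tested that rose. Of 5 astrocyte genes 1 rose, Aldh1l1 (log2 fold change 0.29, SE 0.0721), and the intermediate filament gene Gfap stood at 747, 1038, 1265, 1155 and 299 CPM in the Mef2c shRNA libraries, against 389, 511, 703, 394 and 438 CPM in the scramble libraries without passing (log2 fold change 0.89, SE 0.371, edgeR adjusted p = 0.149). Of 5 oligodendrocyte genes 0 passed edgeR, limma-voom or DESeq2, with log2 fold changes from 0.00 to 0.23 and 0 at an unadjusted p under 0.05. Of 5 endothelial genes, Pecam1, Flt1 and Cdh5 did not pass (log2 fold changes -0.02, -0.07 and 0.02). The other 2 rose, Cldn5 (log2 fold change 0.40, SE 0.0951) and Ly6c1 (log2 fold change 0.58, SE 0.167). After the length and GC correction all 3 of these calls were lost: the log2 fold change was 0.27 for Aldh1l1 (edgeR adjusted p = 0.0848), 0.16 for Cldn5 (edgeR adjusted p = 0.264) and 0.36 for Ly6c1 (edgeR adjusted p = 0.184). Of 5 tested proliferation genes 0 passed edgeR, 1 had an unadjusted p under 0.05, and limma-voom and DESeq2 each called 1. Rrm2 had the largest log2 fold change of these 5 (0.79, SE 0.253, edgeR adjusted p = 0.0561). All 5 Mef2c shRNA libraries were above all scramble libraries in Rrm2, as in 3.3% of all genes tested. The log2 fold changes of the others were 0.44 for Birc5, 0.38 for Top2a, -0.22 for Mki67 and -0.34 for Cdk1. Mki67 had 2.29 to 6.66 CPM in the Mef2c shRNA libraries and 4.67 to 6.03 CPM in the scramble libraries. The list score was highest in Mef2c shRNA libraries 2 and 3, at 0.73 and 0.41.

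Ligands of the member receptors were described from a list of 14, of which 12 were tested and 3 rose, where 4.66% of all genes tested rose. Apoe, a lipid carrier that binds Trem2, averaged 1937 ± 281 CPM in the Mef2c shRNA libraries and 1389 ± 106 CPM in the scramble libraries (SD, n = 5 each), with log2 fold change 0.48, SE 0.0926, edgeR adjusted p = 0.00671. Clu, the carrier clusterin, averaged 1085 ± 104 CPM in the Mef2c shRNA libraries and 836 ± 38.2 CPM in the scramble libraries (SD, n = 5 each), with log2 fold change 0.38, SE 0.0703, edgeR adjusted p = 0.00554. Both genes had all 5 Mef2c shRNA libraries above all scramble libraries, and astrocytes are a main source of both. Icam1, the ligand of Itgb2 integrins, averaged 7.41 ± 3.99 CPM in the Mef2c shRNA libraries and 2.85 ± 0.557 CPM in the scramble libraries (SD, n = 5 each), with log2 fold change 1.38, SE 0.358, edgeR adjusted p = 0.031. The Csf1r ligands Csf1 (log2 fold change 0.31, SE 0.144) and Il34 (log2 fold change 0.15, SE 0.0800) and the Cx3cr1 ligand Cx3cl1 (log2 fold change 0.01, SE 0.0558) did not pass, and Cx3cl1 ranged over 532 to 572 CPM in the Mef2c shRNA libraries and 503 to 581 CPM in the scramble libraries. After the length and GC correction 0 of the 12 passed edgeR, with 6 at an unadjusted p under 0.05, and the log2 fold changes of Apoe and Clu were 0.24 and 0.20. Without it limma-voom called 6 and DESeq2 5, where over all genes limma-voom called 1588 higher and DESeq2 1167.

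Downstream of the ITAM adaptors, 5 of 14 tested signalling genes rose, where 4.66% of all genes tested rose. Inpp5d, the lipid phosphatase SHIP1, stood at 18.4, 22.7, 27.9, 19.5 and 17.3 CPM in the Mef2c shRNA libraries, against 11.4, 16.4, 16.4, 13.3 and 11.5 CPM in the scramble libraries. The groups did not overlap, and Inpp5d rose before (log2 fold change 0.61, SE 0.148, edgeR adjusted p = 0.0196) and after the correction (log2 fold change 0.66, edgeR adjusted p = 0.0478). The others were the Src-family kinase Lyn (log2 fold change 0.66, SE 0.193), the phosphatase Ptpn6 (log2 fold change 1.04, SE 0.310), the kinase Btk (log2 fold change 1.09, SE 0.318) and the adaptor Lcp2 (log2 fold change 1.14, SE 0.344). After the length and GC correction these 4 calls were lost. The edgeR adjusted p-values were then 0.0867 for Lyn, 0.158 for Ptpn6, 0.107 for Btk and 0.108 for Lcp2. This left 1 of the 14 called, where 0.695% of all genes rose. The kinase Syk, which binds phosphorylated ITAMs, did not pass (log2 fold change 0.27, SE 0.160, edgeR adjusted p = 0.28), and nor did Plcg2 (log2 fold change 0.20, SE 0.139).

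Of 28 further microglial genes 6 rose, where 4.66% of all genes tested rose. The lysosomal proteases Ctsb (log2 fold change 0.26, SE 0.0578), Ctsd (log2 fold change 0.57, SE 0.117) and Ctsz (log2 fold change 0.86, SE 0.194) were among them, with the transcription factor Runx1 (log2 fold change 1.1, SE 0.310), the tetraspanin Cd37 (log2 fold change 0.78, SE 0.199) and the fatty acid receptor Gpr84 (log2 fold change 1.85, SE 0.533). After the length and GC correction Ctsb and Tgfbr2, a TGF-beta receptor chain, were called (edgeR adjusted p = 0.0198 and 0.0172), and the other 5 calls were lost. With this correction 0.695% of all genes rose.

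Transcript length and the members' fold changes could be set side by side. The 10 activation-associated genes had a median longest transcript of 1463 bases, and the 12 homeostatic and 16 shared myeloid genes medians of 2436 and 2438.5 bases, against 3476 over all genes tested. In the length bin centred on 2.43 kb the median log2 fold change of all genes was 0.11. Length here is that of the longest annotated transcript, which need not be the main one. Members short by this measure, such as Cd52, Tyrobp and Fcer1g, had smaller log2 fold changes after the correction (1.97, 0.64 and 1.05) than before it (2.28, 0.94 and 1.33). Ptprc, Trem2 and Olfml3, long by this measure, had larger ones (1.21, 0.81 and 0.64, against 1.04, 0.75 and 0.54). Itgax and Axl, also longer than the median gene, had slightly smaller log2 fold changes after the correction (2.08 and 0.24) than before it (2.09 and 0.26). The order of the lists, with shared myeloid above activation-associated above homeostatic medians, was the same before and after.

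**Figure D5:**
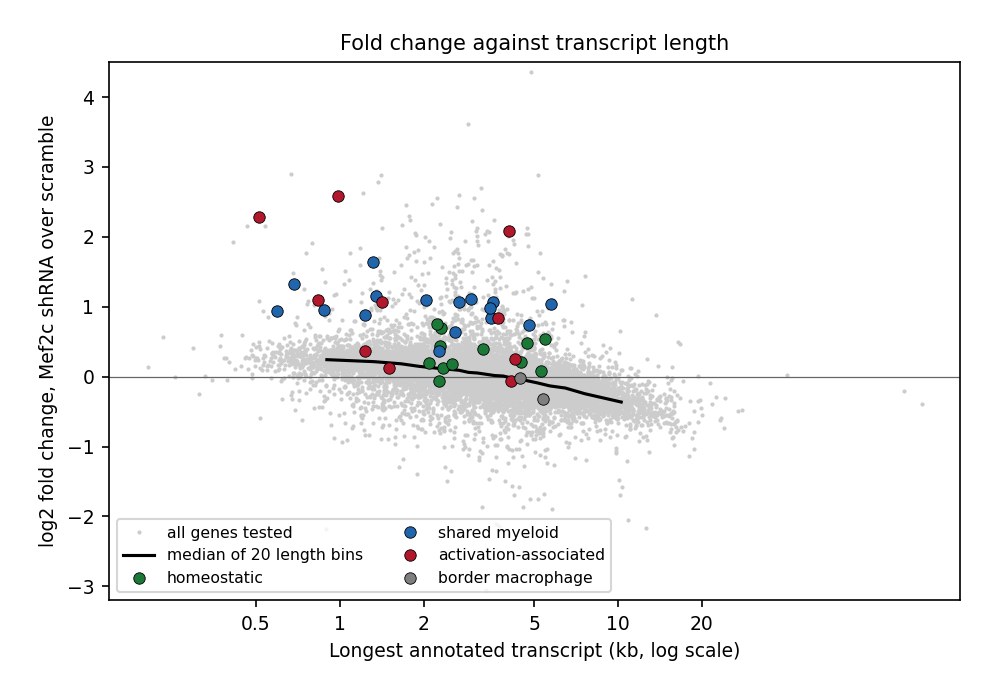
Log2 fold change of Mef2c shRNA over scramble against the length of the longest annotated transcript (kb, log scale) for all genes tested (grey), with the median of 20 length bins (line) and the members coloured by role. The 16 shared myeloid genes, at 0.37 or more, lie above the line, whose highest bin is 0.24. The homeostatic genes range from -0.07 to 0.75, some near the line and others, such as Tmem119, well above it.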

How the data were processed

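Per the labels' protocols, polyA+ RNA of mouse hippocampal CA3 was sequenced with paired reads on an Illumina instrument in 10 libraries, 5 with an shRNA against Mef2c and 5 with a scrambled hairpin. The deposited files hold whole-number read counts per gene, 1 file per library. Per the submitters' processing notes, the authors used HISAT2, featureCounts and the mm10 build. The sources used here give no versions, annotation or strand setting. Library totals lay between 14701928 and 17798090 counts. Of 18453 gene identifiers, 18421 matched GENCODE M21 (GRCm38), which gave symbols, positions, transcript lengths and GC content. Within each group, no pair of libraries agreed within sampling noise.

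Counts were tested with the quasi-likelihood test of edgeR 4.0.16 in R 4.3.3, after its filter on low counts and TMM scaling, over all 14393 genes left. A gene is called changed where its p, adjusted after Benjamini and Hochberg, is under 0.05. CPM use TMM library sizes, and CPM per kb divide by the longest transcript. The length and GC correction fitted natural splines with 5 degrees of freedom per library and entered them as offsets. Alternatives were limma 3.58.1 (voom with sample weights), DESeq2 1.42.0, other scalings and filters, a replicate block and left-out libraries. The scripts were tested on simulated data. Members were taken by symbol, and all members are accounted for. The called members, and those with the largest or smallest values of a role, are described in most detail. Members and lists were chosen with earlier results of these data known.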

Additional observations from a re-analysis of the deposited data

Results flagged for a closer look

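In 5 of the 80 sets of 5 libraries screened (40 members in 2 groups), 1 library stood apart from the other 4, its gap to the nearest being more than 0.71 of the whole range, which is Dixon's 95% critical value. Chance alone marks about 1 in 20 such sets. Scramble library 3 stood apart in 4 genes, at 28.0 CPM for Tmem119, 12.3 CPM for Itgb2, 3.25 CPM for Itgax and 3.32 CPM for Cst7, each time as the highest scramble library. The library labelled Mef2c shRNA 5 stood apart for Spp1, at 10.6 CPM. The same library had the highest neutrophil sum, 9.96 CPM, and the highest Mef2c level of its group, 286 CPM. The cause was not tested.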

How the results depend on the processing

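The counts called by edgeR were 1766 genes and 15 members (4 homeostatic, 8 shared myeloid, 3 activation-associated), and DESeq2 size factors, upper quartile scaling and the other filters kept them within 1.5 times. With limma-voom they were 3402 genes, 30 members, 16 shared and 8 activation-associated genes. With the DESeq2 Wald test they were 2555 genes, 23 members and 14 shared genes. Under the length and GC correction they were 238 genes and 2, 1, 1 and 0 members in the same order. At an adjusted p under 0.01 they were 379 genes and 2, 1, 1 and 0. Without scramble library 4 and the library labelled Mef2c shRNA 5 they were 1029 genes and 19 members. Without Mef2c shRNA libraries 2, 3 and 4 edgeR called 0 in each, with 2590 genes and 4 members at an unadjusted p under 0.05. Moving Trem2, Tyrobp, Cd68 and Lyz2 gave 5 activation-associated calls. Leaving out 1 library gave 631 to 3305 genes, 4 to 27 members, 2 to 6 homeostatic, 2 to 14 shared and 0 to 7 activation-associated genes.

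Replicate numbers did not pair the libraries: correlations of deviations between libraries of the same number were 0.239, 0.185, 0.403, -0.114 and 0.079, and only Mef2c shRNA library 3 correlated best with its own number. With a replicate block 1313 genes, 23 members and 15 shared genes were called. With the replicate block and the length and GC correction the counts were 205 genes, 9 members, 5 shared and 0 activation-associated genes.

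Without Mef2c shRNA libraries 2, 3 and 4 the log2 fold change turned to -0.125 for P2ry12, -0.183 for P2ry13, -0.007 for Gpr34, -0.177 for Sall1, -0.096 for Ptprc, -0.108 for Irf8, -0.040 for Axl, -0.283 for Cst7, -0.073 for Cd9, 0.148 for Mrc1 and 0.282 for Cd163. Without scramble library 4 and the library labelled Mef2c shRNA 5 it turned to 0.038 for Fcrls and -0.210 for Spp1, and with the length and GC correction to 0.043 for Cd163. Without 1 library it ranged from -0.006 to 0.187 for Sall1, -0.161 to 0.048 for Fcrls, -0.173 to 0.038 for Lpl, -0.222 to 0.560 for Spp1 and -0.171 to 0.158 for Cd163. The cause of these changes of sign was not tested. With 5 libraries a group, low genes such as Cst7 and Itgax had the widest errors.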
